A study of Mus musculus with 13 samples.

Results

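The metallothionein genes Mt1, Mt2 and Mt3, and the zinc exporter gene Slc30a1 were followed across control, nlsYAP5SA and wild-type mice. These 4 zinc genes were chosen by name, and all 4 were found among the 48795 genes of the count table. The RNA sequencing measured the right hemisphere of the mouse brain, without olfactory bulb and cerebellum, at postnatal day 11 in 13 mice of 3 groups. The 5 nlsYAP5SA mice were NexCre +/- YAP5SAnls +/- and carried 1 allele of NEX-Cre, a Cre knock-in at Neurod6, together with a transgene for a nuclear form of YAP1 that the LATS kinases cannot phosphorylate. The transgene stays silent behind a floxed STOP cassette until Cre removes it, so it is switched on in the NEX lineage of neuronal precursors and not in every cell of the hemisphere. The 5 control mice were NexCre -/- YAP5SAnls +/- and carried the silent transgene without Cre, while the 3 C57BL/6 mice were wild type and carried neither allele. All mice were on a C57BL/6J background, the littermates came from different matings that the labels do not assign, and the sex of each mouse was not given.

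Metallothioneins are small, cysteine-rich proteins that bind zinc and copper and buffer the free metal in a cell. Mt1 and Mt2 are made in many tissues and, in brain, mostly by astrocytes. Both genes are induced by zinc through the metal-sensing transcription factor MTF-1, by glucocorticoids, by oxidative stress and by interleukin-6 signalling through STAT3. Mt3 is the brain form, first described as growth inhibitory factor, and is little induced by metals, while Mt4 belongs to stratified epithelia. Slc30a1 (ZnT1) is the zinc exporter of the plasma membrane and is a classical MTF-1 target too.

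Mt1, Mt2 and Mt3 lie side by side on 1 strand of chromosome 8, and Slc30a1 lies on chromosome 1 (GRCm38, GENCODE M21). Mt3 (ENSMUSG00000031760) covers chr8:94152607-94154146, Mt2 (ENSMUSG00000031762) chr8:94172664-94173568 and Mt1 (ENSMUSG00000031765) chr8:94179082-94180327. The gap was 18518 bases between Mt3 and Mt2 and 5514 bases between Mt2 and Mt1. Slc30a1 (ENSMUSG00000037434) covers chr1:191906767-191913247. All 4 are on the plus strand. The bases upstream of each gene are shown because MTF-1 binds short metal response elements there, whose core is TGCACNC or TGCGCNC. They are RefSeq sequence of GRCm38.p6, read 5′ to 3′, with every match to the core on either strand in capitals. The stretches are chr8:94178839-94179081 for Mt1, chr8:94172368-94172617 for Mt2, chr8:94152357-94152606 for Mt3 and chr1:191906531-191906766 for Slc30a1.
Mt1: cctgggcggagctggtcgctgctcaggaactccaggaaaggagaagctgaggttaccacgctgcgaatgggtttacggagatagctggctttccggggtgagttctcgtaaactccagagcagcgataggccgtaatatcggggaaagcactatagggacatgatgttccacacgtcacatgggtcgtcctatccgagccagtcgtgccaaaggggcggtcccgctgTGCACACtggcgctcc
Mt2: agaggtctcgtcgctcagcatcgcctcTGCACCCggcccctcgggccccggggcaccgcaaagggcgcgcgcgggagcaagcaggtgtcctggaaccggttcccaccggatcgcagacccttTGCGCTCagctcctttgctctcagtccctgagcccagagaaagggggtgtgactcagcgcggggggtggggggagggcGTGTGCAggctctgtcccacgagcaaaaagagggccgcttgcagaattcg
Mt3: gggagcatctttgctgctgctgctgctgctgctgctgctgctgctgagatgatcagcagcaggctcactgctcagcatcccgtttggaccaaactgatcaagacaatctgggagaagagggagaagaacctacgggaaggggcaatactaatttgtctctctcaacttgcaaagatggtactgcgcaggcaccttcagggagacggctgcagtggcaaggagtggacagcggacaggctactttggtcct
Slc30a1: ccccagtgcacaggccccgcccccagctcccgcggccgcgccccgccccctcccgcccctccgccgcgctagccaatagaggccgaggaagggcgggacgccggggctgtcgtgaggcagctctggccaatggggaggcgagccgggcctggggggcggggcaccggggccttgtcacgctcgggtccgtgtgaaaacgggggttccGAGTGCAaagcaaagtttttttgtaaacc

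Over a window from 250 bases before to 50 bases after the RefSeq start, the core was matched 3 times at Mt1, 4 times at Mt2, once at Mt3 and 2 times at Slc30a1. Of 32851 promoter windows of that length, 25.7% held at least 1 match, 7.11% at least 2, 1.97% at least 3 and 0.517% at least 4. The matches of Mt1 beyond the printed stretch stood in ggagctcTGCACTCcgcccga and cgaaaagTGCGCTCggctctg, and that of Mt2 in tcgggtcGTGCGCAggcccag. The single match of Mt3 stood in acagcagTGCACACacacgga, after its start, and the second match of Slc30a1 in ccgggccGAGCGCAgtcgccg. The antioxidant response element core TGACNNNGC was matched once at Mt2 and once at Slc30a1, against 12.4% of all windows. Neither GGAATG, a motif of the TEAD partners of YAP1 held by 14.7% of windows, nor the STAT motif TTCNNNGAA, held by 8.3%, was matched in any of the 4 windows. The glucocorticoid response element core ACANNNTGT, which was added after the expression values were seen, was matched once, at Mt1, against 6.85% of windows. Such matches are letters in a window and were not measured as binding, and elements farther away were not searched.

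The libraries held between 20871566 and 25524349 estimated counts per mouse. Levels are given as CPM, the counts of a gene after all libraries were brought to one common size, with TMM factors that allow for differences in library composition. Targets of YAP1 set every nlsYAP5SA mouse apart from all other mice: Ccn1 lay between 17.2 and 29.7 CPM in the nlsYAP5SA mice, between 2.94 and 5.88 in the controls and between 5.49 and 6.47 in the C57BL/6 mice. Amotl2, another target, lay between 42.3 and 52.2 CPM in the nlsYAP5SA mice and between 14.5 and 17.8 in the controls. Ccn2, a further target, was lowest among the nlsYAP5SA mice in replicate 4, at 38.35 CPM against 45.4 to 55.8 in the others. Its controls lay between 16.4 and 19.4 CPM. The sexes were not balanced: Y-linked reads (at least 100 counts of Ddx3y) were present in 5 of 5 controls, in 2 of 5 nlsYAP5SA mice, replicates 3 and 4, and in 2 of 3 C57BL/6 mice, replicates 1 and 3.

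Mt1 and Mt2 rose in the nlsYAP5SA mice, in 4 of the 5. Mt1 was measured at 27.9, 26.3, 24.3, 25.4 and 25.9 CPM in control replicates 1 to 5 and at 96.4, 73.8, 80.8, 22.7 and 75.4 CPM in nlsYAP5SA replicates 1 to 5. Mt2 was measured at 16.0, 13.6, 11.2, 17.4 and 14.97 CPM in the controls and at 71.2, 52.4, 52.0, 14.9 and 64.1 CPM in the nlsYAP5SA mice. Of the nlsYAP5SA mice, 4 stood above every control for both genes, whereas replicate 4 lay below every control for Mt1 and within the control range for Mt2, so the groups overlapped. The mean of Mt1 was 69.8 ± 27.8 CPM (SD, n = 5) against 26.0 ± 1.34 in the controls, a log2 fold change of 1.42 (SE 0.27, 95% confidence interval 0.83 to 2.02). Its adjusted p was 0.0051 by edgeR's quasi-likelihood test, with the Benjamini-Hochberg adjustment over the 16315 genes tested. The mean of Mt2 was 50.9 ± 21.7 CPM (SD, n = 5) against 14.6 ± 2.38, a log2 fold change of 1.80 (SE 0.31, 95% confidence interval 1.12 to 2.47, edgeR adjusted p = 0.0025). Genes at an adjusted p of 0.05 or less are referred to as called. In this comparison 10.8% of all genes tested were called, 7.36% as higher, and 2 of the 4 zinc genes were called, both higher. Replicate 4 was also the lowest of the nlsYAP5SA mice for 6 of 7 choroid plexus genes, and the gap was wide for Ttr (transthyretin), which was at 0.783 CPM there and between 55.2 and 276 CPM in the other nlsYAP5SA mice, while the controls ran from 0.822 to 217 CPM. With the level of Ttr as a covariate Mt1 and Mt2 stayed called, at log2 fold changes of 1.05 (edgeR adjusted p = 0.030) and 1.39 (edgeR adjusted p = 0.015). In RNA of a whole hemisphere, more cells that express a gene and more RNA per cell cannot be told apart.

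**Figure D1:**
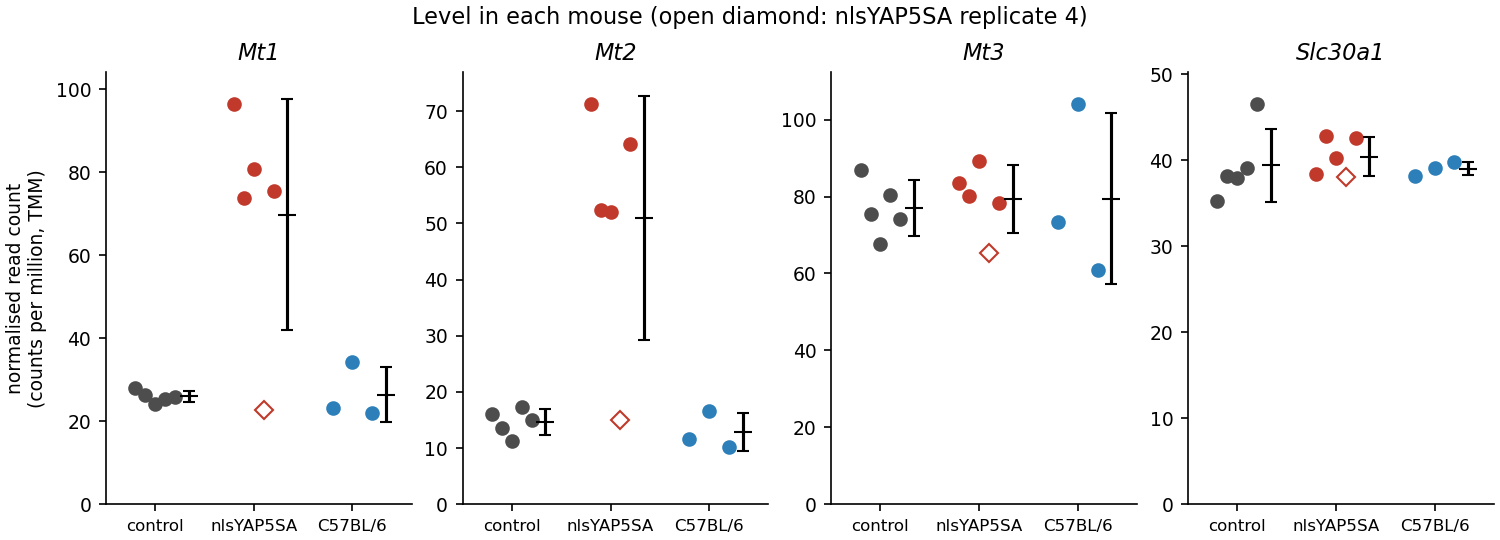
Normalised read count in CPM (vertical axis, from 0) of Mt1, Mt2, Mt3 and Slc30a1 in every mouse of the 3 groups, with the mean and SD of each group as a black bar beside its points. Of the nlsYAP5SA mice, 4 stand between 73.8 and 96.4 CPM for Mt1 and replicate 4, the open diamond, at 22.7 CPM, while the groups lie over each other for Mt3 and Slc30a1.

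Leaving out replicate 4 narrowed the error more than it moved the mean. The 4 other nlsYAP5SA mice averaged 81.6 ± 10.3 CPM of Mt1 and 59.9 ± 9.38 CPM of Mt2 (SD, n = 4). Without replicate 4 the log2 fold change against control was 1.65 (SE 0.08, edgeR adjusted p = 8.0e-07) for Mt1 and 2.03 (SE 0.13, edgeR adjusted p = 4.6e-06) for Mt2. Both calls were lost when the sum of 4 Y-linked genes per mouse entered the model as a covariate, with log2 fold changes of 1.01 (edgeR adjusted p = 0.13) for Mt1 and 1.21 (edgeR adjusted p = 0.074) for Mt2. Among mice with Y-linked reads only, 2 nlsYAP5SA mice at 80.8 and 22.7 CPM of Mt1 were set against the 5 controls, and the log2 fold changes were 0.99 for Mt1 (edgeR adjusted p = 0.27) and 1.19 for Mt2 (edgeR adjusted p = 0.19). No control lacked Y-linked reads, so the 3 nlsYAP5SA mice without them have no control of their kind. With that covariate and without replicate 4, the log2 fold changes were 1.63 for Mt1 and 1.83 for Mt2. Replicate 3 was then the only nlsYAP5SA mouse with Y-linked reads, so these values rest largely on that mouse against the controls. DESeq2's Wald test with a prior on fold changes, with no mouse left out, shrank the log2 fold changes of Mt1 and Mt2 to 0.68 and 0.75, still called. The sign was the same in each of these fits.

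Mt3 and Slc30a1 were not called. Mt3 was measured at 87.0, 75.5, 67.7, 80.5 and 74.2 CPM in control replicates 1 to 5 and at 83.4, 80.2, 89.3, 65.3 and 78.2 CPM in nlsYAP5SA replicates 1 to 5. Its log2 fold change was 0.04 (SE 0.09, 95% confidence interval -0.15 to 0.23, edgeR adjusted p = 0.83). Slc30a1 was measured at 35.3, 38.2, 38.0, 39.1 and 46.5 CPM in the controls and at 38.4, 42.9, 40.3, 38.1 and 42.6 CPM in the nlsYAP5SA mice. Its log2 fold change was 0.04 (SE 0.07, 95% confidence interval -0.12 to 0.19, edgeR adjusted p = 0.81). The values of both genes overlapped between the groups, and in this fit the intervals reach 0.23 on the log2 scale for Mt3 and 0.19 for Slc30a1. With an offset for GC content and length the log2 fold change of Mt3 was 0.20 (SE 0.08, edgeR adjusted p = 0.098), still not called. Mt4, the epithelial metallothionein next to Mt3, had 1 count in control replicate 5 and 0 counts in the other 12 libraries, where a count of 0 allows up to 3, and it did not pass the filter on low counts.

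The wild-type C57BL/6 mice gave a second reference. They held 23.2, 34.2 and 21.9 CPM of Mt1, 11.6, 16.6 and 10.3 CPM of Mt2, 73.4, 104 and 60.8 CPM of Mt3 and 38.2, 39.2 and 39.8 CPM of Slc30a1 in replicates 1 to 3. Replicate 2, the C57BL/6 mouse without Y-linked reads, was the highest of the 3 for each metallothionein. This was not particular to them: that mouse was also the highest for Fth1 and Sod1 and the lowest for Slc39a10, genes picked with their values in view. Against control, none of the 4 zinc genes was called by edgeR or by DESeq2, and none reached an unadjusted p of 0.05 in either. Without C57BL/6 replicate 2, which left the mice with Y-linked reads, Mt1 was lower by a log2 fold change of -0.20 (SE 0.08) and Mt2 by -0.42 (SE 0.17), both at an unadjusted p under 0.05 but at an edgeR adjusted p of 0.998. The call rate over all genes in that comparison was 0.169%. Its log2 fold changes were 0.02 (95% confidence interval -0.28 to 0.33) for Mt1 and -0.19 (95% confidence interval -0.59 to 0.21) for Mt2.

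The nlsYAP5SA mice were also set against C57BL/6, a comparison that shares its mutant mice with the one against control. There 6.38% of the genes tested were called, and of the 4 zinc genes only Mt2 was called. Mt2 rose by 1.98 on the log2 scale (SE 0.43, 95% confidence interval 1.02 to 2.93, edgeR adjusted p = 0.025), with 4 of 5 nlsYAP5SA mice above all 3 C57BL/6 mice. Mt1 had nearly the same size of difference as against control, 1.39 (SE 0.39, 95% confidence interval 0.53 to 2.25), but an edgeR adjusted p of 0.064. Without nlsYAP5SA replicate 4 Mt1 was called at a log2 fold change of 1.62 (edgeR adjusted p = 0.0015). The call of Mt2 was lost without nlsYAP5SA replicate 1, 2 or 5 and without C57BL/6 replicate 1 or 2, at edgeR adjusted p from 0.051 to 0.11, and kept without each of the other mice. Mt3 and Slc30a1 gave -0.02 (95% confidence interval -0.37 to 0.34) and 0.04 (95% confidence interval -0.12 to 0.19).

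**Figure D2:**
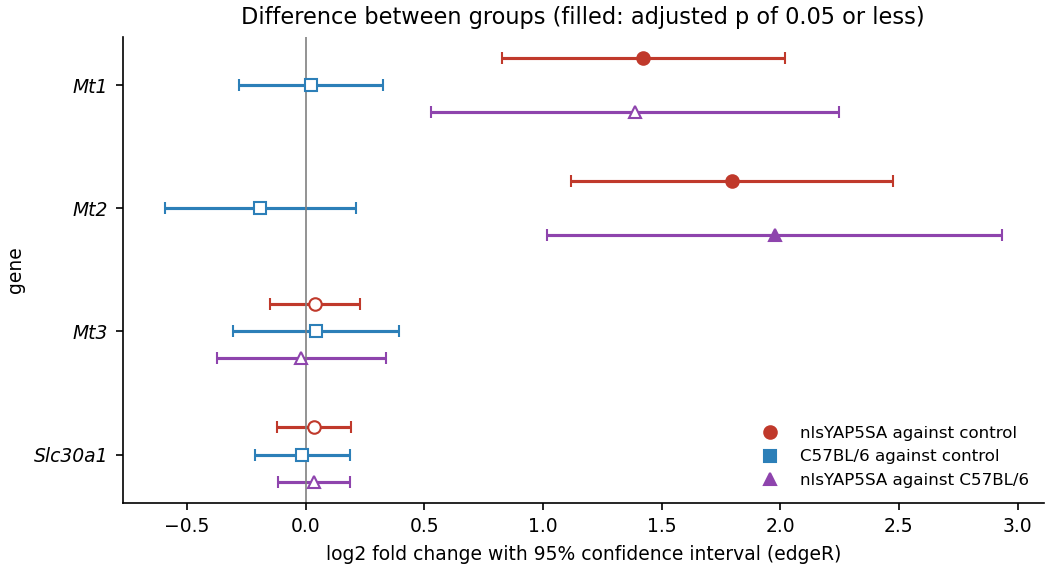
Log2 fold change (horizontal axis) with its 95% confidence interval for each gene in the 3 comparisons, from edgeR, filled where the adjusted p was 0.05 or less. Both comparisons of nlsYAP5SA mice put Mt1 and Mt2 between 1.39 and 1.98, and every interval for Mt3 and Slc30a1 spans 0.

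Levels can be compared between genes only per length of transcript. Mt3 was the most abundant of the 4 in control hemispheres, at 144 ± 13.5 CPM per kilobase of its longest annotated transcript (SD, n = 5). Mt2 followed at 28.6 ± 4.65 and Mt1 at 23.9 ± 1.23 CPM per kilobase, levels whose spreads overlap. Slc30a1, a long transcript, was lowest at 7.52 ± 0.80 CPM per kilobase. The longest Mt1 transcript is 1085 bases, and with the 549 bases of the transcript that the annotation numbers first Mt1 reached 47.3 ± 2.44 CPM per kilobase, above Mt2. The order of Mt1 and Mt2 therefore depends on the transcript, while Mt3 stood first and Slc30a1 last with either length. In the nlsYAP5SA mice Mt3 was at 148 ± 16.5, Mt2 at 99.7 ± 42.5, Mt1 at 64.4 ± 25.7 and Slc30a1 at 7.71 ± 0.43 CPM per kilobase of the longest transcript (SD, n = 5), and the spreads of Mt3 and Mt2 overlapped there. With the transcript numbered first Mt1 was at 127 ± 50.7 CPM per kilobase in these mice, a spread that overlapped those of Mt2 and Mt3.

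Ratios within a mouse remove any scaling of the library. In every one of the 13 mice Mt2 had fewer CPM than Mt1. The Mt2/Mt1 ratio of CPM was 0.572, 0.516, 0.460, 0.683 and 0.577 in control replicates 1 to 5 and 0.739, 0.71, 0.644, 0.658 and 0.850 in nlsYAP5SA replicates 1 to 5. Replicates 1, 2 and 5, the nlsYAP5SA mice without Y-linked reads, were above all controls, and replicates 3 and 4, which have them, were within the control range. The mean log2 ratio, with 0.5 CPM added to each value, was higher by 0.35 in the nlsYAP5SA mice (exact permutation test over all divisions of the 10 mice into 5 and 5, two-sided, p = 0.0238, and 0.0397 after adjustment over 3 ratios). Mt1/Mt3 lay between 0.316 and 0.359 in the controls and at 1.16, 0.920, 0.905, 0.347 and 0.964 in nlsYAP5SA replicates 1 to 5. Its mean log2 ratio was higher by 1.22 (exact permutation p = 0.0317, adjusted 0.0397). Mt1/Slc30a1 lay between 0.557 and 0.791 in the controls and at 2.51, 1.72, 2.01, 0.595 and 1.77 in the nlsYAP5SA mice, with a difference of 1.22 (exact permutation p = 0.0397, adjusted 0.0397). When 1 mouse was left out, the exact p of Mt1/Mt3 exceeded 0.05 in 6 of 10 cases and that of Mt1/Slc30a1 in 9 of 10, reaching 0.0635 and 0.0794, and that of Mt2/Mt1 in 0 of 10. Among mice with Y-linked reads only, 2 against 5, the differences were 0.21 for Mt2/Mt1, 0.72 for Mt1/Mt3 and 0.72 for Mt1/Slc30a1, at exact permutation p of 0.286, 0.381 and 0.476, where no division of these mice can give a p below 0.0952. For the ratios to Mt3 and Slc30a1 replicate 4 was again within the control range. The smallest p such a test can give with 5 against 5 mice is 0.00794.

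**Figure D3:**
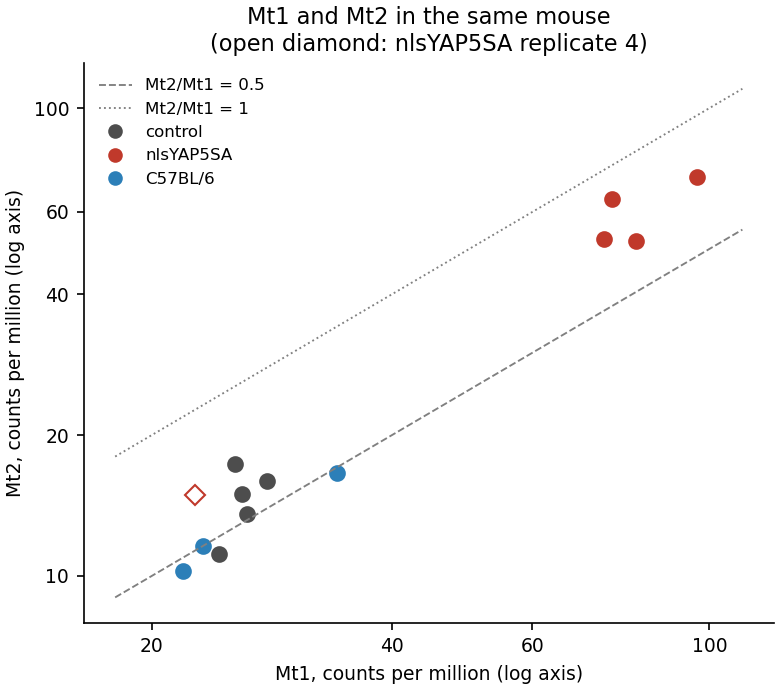
Mt2 against Mt1 in CPM (both axes logarithmic), 1 point per mouse coloured by group, with lines where Mt2/Mt1 is 0.5 and 1. The nlsYAP5SA mice other than replicate 4 stand apart from all other mice on both axes, at ratios between 0.644 and 0.850, while replicate 4, the open diamond, lies with the controls at 0.658.

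In the edgeR fit with no block or covariate, the zinc transporter genes were called about as often as all genes. The SLC30 proteins move zinc out of the cytosol and the SLC39 proteins move it in. Of 9 SLC30 genes tested, Slc30a1 included, and 12 SLC39 genes tested, 2 of 21 were called in nlsYAP5SA mice against control, both lower, which is 9.52% against 10.8% of all genes (3.44% of all genes were called lower). Their median log2 fold change was -0.03, against -0.01 over all genes tested. Slc30a2, which loads zinc into vesicles, fell from 1.94 to 1.19 CPM in the mean, by 0.71 on the log2 scale (SE 0.19, edgeR adjusted p = 0.031), and all 5 nlsYAP5SA mice, between 0.957 and 1.499 CPM, were below all controls. Slc39a8, a zinc and manganese importer, fell from 16.9 to 12.8 CPM, by 0.40 (SE 0.11, edgeR adjusted p = 0.032), and here replicate 4, at 16.13 CPM, was just above the lowest control at 16.09 CPM. The call of Slc30a2 was lost without control replicate 2, 3 or 4 or nlsYAP5SA replicate 1, 2 or 4 (edgeR adjusted p from 0.056 to 0.087), and that of Slc39a8 without control replicate 2, 4 or 5 or nlsYAP5SA replicate 1, 2, 3 or 5 (edgeR adjusted p from 0.052 to 0.085). Both were lost with the Y-linked covariate (edgeR adjusted p = 0.19 and 0.32) and with the Ttr covariate (edgeR adjusted p = 0.086 and 0.068), and Slc30a2 also without a filter and with the replicate number as a block (edgeR adjusted p = 0.0503 and 0.097). In the fit of all 10 mice with no block or covariate edgeR called 0 transporters higher, although 3 were higher and 5 lower before adjustment at a p of 0.05 or less. By DESeq2's Wald test 4 transporters were called, Slc39a1 higher and Slc30a2, Slc30a6 and Slc39a8 lower, where 13.85% of all genes were called. With the GC content and length offset edgeR called these 4 and Slc30a10, 1 higher and 4 lower, where 15.25% of all genes were called. Without nlsYAP5SA replicate 4 edgeR called 3 (11.51% of all genes), Slc39a12 higher and Slc30a6 and Slc39a8 lower. Without control replicate 1 (10% of all genes) it called Slc39a1 higher beside Slc30a2 and Slc39a8.

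**Figure D4:**
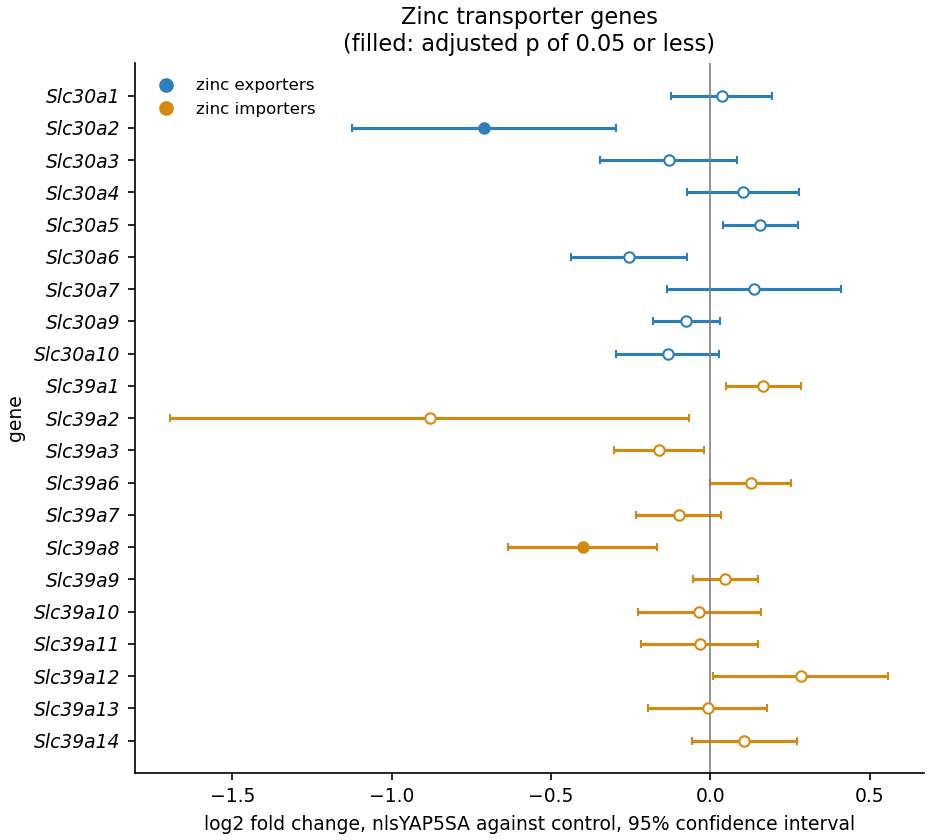
Log2 fold change in nlsYAP5SA mice against control (horizontal axis) with its 95% confidence interval for 9 zinc exporter genes and 12 zinc importer genes, filled where the edgeR adjusted p was 0.05 or less. The filled points are Slc30a2 at -0.71 and Slc39a8 at -0.40, and Slc30a1 stands at 0.04.

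Of MTF-1 and 8 reported MTF-1 targets other than the 4 genes, 2 were called higher and 1 lower, with a median log2 fold change of 0.06. Mtf1 itself was at 29.0 CPM in the controls and 30.2 CPM in the nlsYAP5SA mice, a log2 fold change of 0.06 (SE 0.07). Gclc, the catalytic subunit of glutathione synthesis, rose by 0.21 (SE 0.06, edgeR adjusted p = 0.041), and Ndrg1, a stress-response gene, by 0.40 (SE 0.11, edgeR adjusted p = 0.034). The iron exporter gene Slc40a1 (ferroportin) fell by 0.57 (SE 0.13, edgeR adjusted p = 0.016). These 3 of 9 genes stand beside a share of 10.8% over all genes. With the Y-linked covariate these calls were lost (edgeR adjusted p from 0.25 to 0.47), and over all alternatives run Gclc lost its call in 17 of 23 and Ndrg1 in 11 of 23, with edgeR adjusted p up to 0.113 and 0.079 when 1 mouse was left out. Gclc is also an NRF2 target, Slc39a10 is also a zinc importer and Slc40a1 also handles iron. Copper handling, the other metal that metallothioneins bind, gave 1 called gene of 10, close to the 10.8% of all genes: Cp (ceruloplasmin, a copper-carrying ferroxidase) rose from 10.2 to 20.5 CPM, by 1.001 (SE 0.18, edgeR adjusted p = 0.0035). Iron handling gave 2 of 10 (10.8% of all genes), the fall of Slc40a1 and a rise of Heph (hephaestin, a second copper ferroxidase) by 0.73 (SE 0.18, edgeR adjusted p = 0.022). With the Y-linked covariate Cp and Heph were no longer called (edgeR adjusted p = 0.12 and 0.37), and Heph was not called with the Ttr covariate (0.086), without control replicate 4 (0.059) or without nlsYAP5SA replicate 2 (0.056) either. Cp and Heph were lowest among nlsYAP5SA mice in replicate 4, at 14.8 and 4.65 CPM.

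Genes that answer to the other known inducers of Mt1 and Mt2 were counted in the same way. Of 13 glucocorticoid-responsive genes, 4 were called, all higher, against 7.36% of all genes called higher, and their median log2 fold change was 0.31, against -0.01 over all genes. Fkbp5, a co-chaperone of the glucocorticoid receptor, was measured at 28.0, 29.8, 28.4, 29.6 and 30.4 CPM in the controls and at 71.3, 58.2, 63.0, 30.4 and 61.3 CPM in nlsYAP5SA replicates 1 to 5, a rise of 0.96 (SE 0.17, edgeR adjusted p = 0.0029). Replicate 4 was within the control range for Fkbp5, as it was for Mt2. Plin4, a lipid droplet protein, rose from a mean of 0.190 to 2.77 CPM (log2 fold change 3.85, SE 0.53, edgeR adjusted p = 4.8e-04) and stood at 0.826 CPM in replicate 4. Its controls lay near the floor, between 0.0783 and 0.331 CPM, and it did not pass the filter in C57BL/6 against control. Over the alternatives run, its log2 fold change against control ranged from 1.01 to 4.12. Errfi1, an inhibitor of EGF receptor signalling, rose by 0.31 (SE 0.07, edgeR adjusted p = 0.011). In 10 of the 13 genes replicate 4 was the lowest of the 5 nlsYAP5SA mice, against 22.8% of all genes tested. This was not particular to these genes: replicate 4 was also lowest in 7 of 7 oligodendrocyte, 6 of 7 choroid plexus, 5 of 7 ciliated ependymal, 6 of 9 neuronal and 6 of 10 astrocyte markers. Without replicate 4, 8 of the 13 were called, against 11.51% of all genes. With the Y-linked covariate 1 was called, against 3.32% of all genes: Plin4 (edgeR adjusted p = 0.0096), while Fkbp5 was at 0.092.

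Replicate 4 was not low for the STAT3 and interleukin-6 family. Of 10 genes tested, 8 were called, all higher (7.36% of all genes were), with a median log2 fold change of 1.09. Bcl3 was among the 8, at a mean of 0.245 CPM in the controls, and did not pass the filter in C57BL/6 against control. The count of called genes was 6 with the Y-linked covariate, where the glucocorticoid-responsive genes gave 1 and 3.32% of all genes were called. Cebpd, a transcription factor of the acute-phase response, and Socs3, the feedback inhibitor of STAT3, each rose by 1.51 (edgeR adjusted p = 2.1e-05 and 5.5e-05), and Stat3 by 0.52 (SE 0.05, edgeR adjusted p = 6.3e-05). Socs3 lay between 1.56 and 1.88 CPM in the controls and at 4.20, 4.94, 4.29, 6.91 and 4.78 CPM in nlsYAP5SA replicates 1 to 5, so replicate 4 was the highest. It was the lowest of the 5 for 1 of the 10 genes. Of 9 reactive astrocyte genes, 8 were called higher, against the same 7.36%. Lcn2, Steap4 and Cxcl10 were among the 8, at means of 0.109, 0.290 and 0.205 CPM in the controls. They did not pass the filter in C57BL/6 against control, so they were tested only where nlsYAP5SA mice took part. Gfap, the astrocyte intermediate filament, stood between 170 and 189 CPM in the controls and between 648 and 830 CPM in the nlsYAP5SA mice, at 806 CPM in replicate 4. The paper reports multiple brain tumours in nlsYAP5SA mice, and tumour cells of its LATS knockout model were focally positive for GFAP. RNA of a whole hemisphere cannot tell such cells from reactive astrocytes. NRF2 targets gave 5 called of 11, all higher (7.36% of all genes), among them Gstm1 (0.87), Nfe2l2 itself (0.50) and Hmox1 (0.86), at edgeR adjusted p from 6.1e-04 to 0.0061. With the Y-linked covariate Nfe2l2 and Hmox1 were no longer called (edgeR adjusted p = 0.077 and 0.10), while Gstm1 was (0.020), as were Stat3, Socs3, Cebpd and Gfap (edgeR adjusted p from 4.1e-07 to 0.0024). Gstm1, a glutathione transferase, was lowest in replicate 4 at 63.1 CPM but above all controls.

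**Figure D5:**
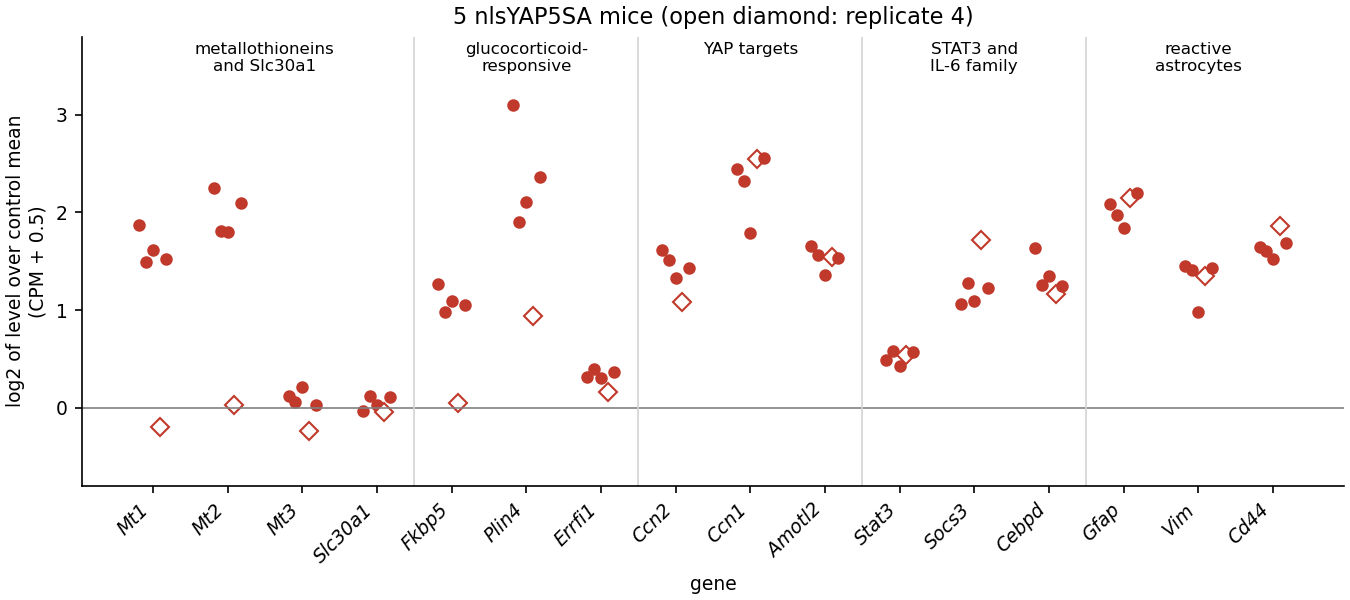
Log2 of the level in each nlsYAP5SA mouse over the mean of the controls (vertical axis, 0.5 CPM added to both) for the 4 zinc genes, 3 glucocorticoid-responsive genes, 3 YAP1 targets, 3 STAT3 and interleukin-6 genes and 3 reactive astrocyte genes. The open diamond, replicate 4, lies near 0 for Mt1, Mt2 and Fkbp5 (22.7, 14.9 and 30.4 CPM) and with the other mice for Amotl2, Stat3 and Gfap.

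Astrocytes are the main brain source of Mt1 and Mt2, so their markers are given beside the result. The summed level of 10 astrocyte genes lay between 3351 and 5935 CPM in the controls and between 4658 and 6864 in the nlsYAP5SA mice, with replicate 4 lowest. The glutamate transporter gene Slc1a2 made up most of that sum. Replicate 4 was the lowest of the 5 nlsYAP5SA mice for 6 of the 10 genes. Among them were Gjb6, at 16.0 CPM against 36.7 to 41.8 in the others, and Aldoc, at 287 CPM against 471 to 559. Aqp4, the astrocyte water channel, was instead highest in replicate 4, at 525 CPM against 250 to 416 in the other nlsYAP5SA mice. Slc1a2, Gjb6, Aldoc and Aqp4 were chosen with their values in view. The summed level of 9 reactive astrocyte genes lay between 250 and 298 CPM in the controls and between 878 and 1146 in the nlsYAP5SA mice, where replicate 4 was at 1086. Gfap made up most of that sum, and replicate 4 was the lowest of the 5 for 3 of the 9 genes, among them Lcn2 (lipocalin 2), chosen after its values were seen, at 0.565 CPM against 2.78 to 5.71 in the other nlsYAP5SA mice. No marker of either list was at 0 in all mice. The part of cell number in the levels of Mt1 and Mt2 was not tested.

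The genes most like each zinc gene were found over the 13 mice and 13452 genes by Pearson's r of log2 CPM after the mean of each group was subtracted, a description of libraries that share their depth and their outlying mouse. The mate of Mt2 in this sense was Mt1 (r = 0.97), and Mt1 stood nearest to Sult1a1, a phenol sulphotransferase (r = 0.98), Prkch, a protein kinase C (r = 0.97), and Smox, the spermine oxidase (r = 0.97). Sult1a1 was at 22.3, 20.6, 19.2, 2.87 and 15.9 CPM in nlsYAP5SA replicates 1 to 5 and between 2.32 and 2.84 CPM in the controls. Without replicate 4 the same values fell to 0.77 for Mt1 with Mt2, 0.78 for Sult1a1, 0.81 for Prkch and 0.84 for Smox, so the likeness rested in good part on that mouse. Mt2 was next nearest to Prkch (r = 0.96) and Slc25a34, a mitochondrial carrier (r = 0.95). Mt3 was nearest to Tmem59 (r = 0.99), Suclg1, a subunit of succinate-CoA ligase (r = 0.99), and BC029722 (r = 0.98), and these stayed at 0.97 or above without replicate 4. Mt3 itself had r of 0.66 with Mt1 and with Mt2, and without replicate 4 these were 0.84 and 0.73, the first above the 0.77 of Mt1 with Mt2. Many other genes stood nearer to Mt3: Mt1 was only at rank 2231 among the genes like it, and at rank 836 without replicate 4. Slc30a1 was nearest to Rnft1 (r = 0.86), Fosb, a subunit of the AP-1 transcription factor (r = 0.84), and Serpina3n, a protease inhibitor (r = 0.83), and had r of 0.18 with Mt1 and 0.23 with Mt2, which became -0.26 and -0.07 without replicate 4. Among the controls Slc30a1, Rnft1, Fosb and Serpina3n were all highest in replicate 5, where Serpina3n was at 32.8 CPM against 7.88 to 10.2 in the others. Their likeness without that mouse was not tested.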

How the data were processed

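RNA of 13 right hemispheres was sequenced from libraries of a KAPA mRNA kit. The authors used CutAdapt 1.5 for trimming and STAR for mapping to GRCm38, and deposited estimated counts per gene from RSEM 1.3.0, not normalised and not filtered. The strand setting was not given in the sources used here, so antisense genes overlapping Mt2 and Slc30a1 cannot be told apart from them. The 4 zinc genes share no stretch of 50 bases with another gene. Estimated counts were rounded (12.4% to 13.3% of values per mouse were not whole). Genes without a name (446) held 0.0649% of counts. The labels gave groups and replicate numbers, and sampling noise alone did not explain the differences between any 2 replicates of a group. p-values and confidence intervals of fold changes measure the spread between mice, and limits on a count of 0 cover counting error only.

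Genes were kept by filterByExpr (minimum count 10, minimum total 15), scaled by TMM and tested two-sided with edgeR 4.0.16 (R 4.3.3, limma 3.58.1), with calls made at 0.05 or less after the Benjamini-Hochberg adjustment. Ratios were tested by exact permutation with scipy 1.17.1, with 0.5 CPM added. On simulated counts for nlsYAP5SA against control (16315 genes) the test recovered 86.7% of genes changed by 1 and 55.6% of genes changed by 0.5 on the log2 scale. Alternatives were DESeq2 size factors, DESeq2 1.42.0, library size alone, other filters, 1 fit of all mice, covariates, a GC content and length offset, the replicate number as a block and leaving out each mouse. Others were added after the data were seen: mice with Y-linked reads only, that covariate without nlsYAP5SA replicate 4, and another transcript length. The genes and lists were chosen with earlier results of these data known. Named from the lists were called genes for metallothioneins, zinc transporters and MTF-1 targets, up to 3 called genes with the smallest adjusted p for other lists, and the 3 genes most like each zinc gene by r, among genes with a mean of 50 counts. Ccn1, Amotl2 and Ccn2 were chosen as known YAP1 targets after their values were seen.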

Additional observations from a re-analysis of the deposited data

Results flagged for a closer look

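For each named gene and ratio, the lowest and the highest of the 5 control and of the 5 nlsYAP5SA mice were compared with the nearest of the others on the scale of log2(CPM + 0.5). Of 102 groups tested, 12 held a mouse whose gap was over 0.71 of the range, and chance gives about 1 in 20, or 5.1. In 9 of the 12 that mouse was nlsYAP5SA replicate 4. On the scale of CPM it was the lowest for Mt1 at 22.7 (others 73.8 to 96.4), Mt2 at 14.9 (others 52.0 to 71.2), Fkbp5 at 30.4 (others 58.2 to 71.3), Sult1a1 at 2.87 (others 15.9 to 22.3), Prkch at 11.7 (others 15.6 to 17.4), Smox at 28.6 (others 45.4 to 54.4) and Slc25a34 at 3.44 (others 7.45 to 9.45). It was also the lowest for the ratios Mt1/Mt3 at 0.347 (others 0.905 to 1.16) and Mt1/Slc30a1 at 0.595 (others 1.72 to 2.51). Sult1a1, Prkch, Smox and Slc25a34 were named for their likeness to Mt1 or Mt2, which rests partly on this mouse, so they are not separate evidence. The other flagged values were Vim in nlsYAP5SA replicate 3 (103 CPM, others 133 to 143), Slc25a34 in control replicate 3 (3.08 CPM, others 4.01 to 4.30) and Serpina3n in control replicate 5 (32.8 CPM, others 7.88 to 10.2).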

How the results depend on the processing

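Mt1 and Mt2 against control stayed higher in every alternative run. Both calls were lost with the Y-linked covariate (1.01 and 1.21) and among mice with Y-linked reads only (0.99 and 1.19). Leaving out 1 mouse gave 1.28 to 1.65 for Mt1 and 1.65 to 2.03 for Mt2, all called. In nlsYAP5SA against C57BL/6, Mt1 became called with library size alone (1.44), no filter (1.40), DESeq2 (1.39), its prior (0.52), a single fit of all mice (1.40), the Ttr covariate (1.18), the GC content and length offset (1.48) and the Y-linked covariate without nlsYAP5SA replicate 4 (1.53), and leaving out 1 mouse gave 1.25 to 1.63. Mt2 there lost its call with Y-linked mice only (1.61), and leaving out 1 mouse gave 1.83 to 2.22.

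Values near 0 that were not called changed sign, and none became called. Against control these were Mt3 with the Ttr covariate (-0.043) and Slc30a1 with the Y-linked covariate (-0.0021), the GC content and length offset (-0.0093) and Y-linked mice only (-0.014), and leaving out 1 mouse gave -0.0080 to 0.10 for Mt3 and 0.0015 to 0.10 for Slc30a1. In C57BL/6 against control, Mt1 gave -0.0055 with library size alone, -0.19 with the Y-linked covariate, -0.020 with the Ttr covariate, -0.0022 with the GC content and length offset and -0.20 with Y-linked mice only, Mt3 gave -0.19 and -0.20 with the Y-linked covariate and Y-linked mice only, and Slc30a1 gave 0.0038 with the GC content and length offset. Leaving out 1 mouse gave -0.20 to 0.13 for Mt1, -0.42 to -0.067 for Mt2, -0.20 to 0.19 for Mt3 and -0.051 to 0.052 for Slc30a1. In nlsYAP5SA against C57BL/6, Mt3 gave 0.026 with library size alone, 0.17 with the GC content and length offset and 0.20 with Y-linked mice only, Slc30a1 gave -0.017 and -0.0021 with the latter 2, and leaving out 1 mouse gave -0.18 to 0.24 for Mt3 and 0.013 to 0.066 for Slc30a1. Against control, Suclg1 (0.028) and BC029722 (0.034) changed sign with the Y-linked covariate without replicate 4.

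Genes called against control numbered 1761, and 542 with the Y-linked covariate, 334 with Y-linked mice only, 301 with that covariate and without replicate 4, and 1210 to 1891 leaving out 1 mouse. C57BL/6 against control gave 28, and 16 with at least 10 counts in every mouse, 59 with DESeq2, 56 with its prior, 44 in a single fit and 19 to 27 leaving out 1 mouse. nlsYAP5SA against C57BL/6 gave 1061, and 1596 with DESeq2, 1724 with the GC content and length offset, 47 with Y-linked mice only, 473 with the Y-linked covariate without replicate 4, and 401 to 1757 leaving out 1 mouse. The cause of these shifts was not tested, beyond the smaller number of mice in some.

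The ratio tests kept their sign and, at an unadjusted exact p, their call under both other pseudocounts and library size alone. Leaving out 1 mouse gave 0.28 to 0.42 for Mt2/Mt1, all called, 1.09 to 1.52 for Mt1/Mt3 and 1.05 to 1.56 for Mt1/Slc30a1, with Mt1/Mt3 no longer called without control replicate 1 or 4 or nlsYAP5SA replicate 1, 2, 3 or 5 (exact p = 0.0635), and Mt1/Slc30a1 called only without nlsYAP5SA replicate 4. Among mice with Y-linked reads only the differences were 0.21, 0.72 and 0.72, none of them called in a design that cannot go below 0.0952.

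Replicate numbers did not pair the mice: deviations of same-numbered control and nlsYAP5SA mice had correlations from -0.31 to 0.31, and 1 of 5 correlated best with its own number. With the number as a block, the calls of Mt1 and Mt2 against control were kept, Mt2 against C57BL/6 (2.19) was lost at an edgeR adjusted p of 0.051, Mt1 in C57BL/6 against control was -0.010, Slc30a1 there 0.072, and Mt3 in nlsYAP5SA against C57BL/6 0.11. Genes called were 15 in C57BL/6 against control and 47 in nlsYAP5SA against C57BL/6. The paired ratio differences of 0.35, 1.22 and 1.22 had exact sign-flip p of 0.125, 0.0625 and 0.125, and 5 pairs cannot go below 0.0625. For 44 other named genes, 863 of 1010 alternative values kept direction and call, 145 kept direction and lost the call, and 2 changed sign. Mt1 and Mt2 rest on 254 to 2133 counts per mouse, so counting error is small beside the spread between mice, whereas Mt4 could not be measured at this depth.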

Other observations

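Other cell type markers were counted in nlsYAP5SA mice against control (edgeR, adjusted p of 0.05 or less), where 10.8% of all genes were called, 7.36% higher and 3.44% lower. Microglia gave 6 called higher of 8 tested, with a median log2 fold change of 0.68, among them Csf1r and Cx3cr1. That count was 4 with the Y-linked covariate and 2 among mice with Y-linked reads only, fits in which 3.32% and 1.97% of all genes were called. Astrocyte markers gave 4 higher and 1 lower of 10, among them Gja1 and Sox9 higher and S100b lower. Neuronal markers gave 2 lower of 9, Neurod6, the locus of the Cre knock-in, and Nefl. Endothelial markers gave 2 lower of 8, Cldn5 and Cdh5. Ciliated ependymal cells gave 1 higher of 7 (Foxj1), choroid plexus 1 higher of 7 (Folr1), and meningeal fibroblasts 2 higher (Aldh1a2 and Col1a2) and 1 lower (Lum) of 7. Leaving out 1 mouse gave 1 to 5 called ciliated ependymal genes, 1 to 2 choroid plexus genes and 2 to 4 meningeal fibroblast genes. With the Y-linked covariate Gja1, Sox9, S100b, Cdh5, Foxj1, Folr1, Col1a2 and Lum were no longer called (edgeR adjusted p from 0.11 to 0.44), while Csf1r, Cx3cr1, Neurod6, Nefl, Cldn5 and Aldh1a2 were (from 0.0017 to 0.020). Single mice also decided 3 of these calls: left out in turn, control replicate 3, 4 or 5 or nlsYAP5SA replicate 1 or 2 ended that of Cdh5 (edgeR adjusted p up to 0.084), and control replicate 2 or nlsYAP5SA replicate 1, 2 or 5 those of Col1a2 and Gja1 (up to 0.064). With the Ttr covariate Cdh5 and Gja1 were not called (0.069 and 0.062), and with the replicate number as a block Gja1, Sox9 and S100b were not (0.075, 0.053 and 0.057). Of 7 oligodendrocyte genes edgeR called 0, DESeq2's Wald test called 2, and 5 had an edgeR p of 0.05 or less before adjustment. With 1 mouse left out, edgeR called 0 to 3 of these 7 genes. Of 5 erythrocyte and 4 Y-linked genes edgeR and DESeq2 called 0, and 0 had such a p before adjustment. The summed level of the oligodendrocyte genes was 1352 CPM in nlsYAP5SA replicate 4, the lowest of the 5 nlsYAP5SA mice, whose highest was 2908, and lay between 2102 and 3521 CPM in the controls. The summed level of 7 choroid plexus genes was 13.96 CPM in replicate 4, the lowest of the 5, whose highest was 311, and lay between 11.5 and 237 CPM in the controls. The part of these cells in the levels of Mt1 and Mt2 was not tested.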
